A study of Mus musculus with 13 samples.

Results

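Expression of 9 genes that mark medullary thymic epithelial cells (mTECs) was examined in the CD45- stroma of the mouse thymus before and after total body irradiation (TBI). The genes were Epcam, Trp63, Cldn3, Cldn4, Elf3, Aire, Fezf2, Cd80 and Hdc. They were chosen by name and matched by symbol to the Ensembl identifiers of the count table, where they are 9 of 53379 genes. All 9 passed the filter on low counts, which kept 19984 genes for testing. RNA was sequenced from CD45- thymic cells of wild type C57BL/6 mice aged 2 months. Steady state was measured in 4 libraries, and day 1, day 4 and day 7 after sublethal TBI in 3 libraries each. Mice at steady state are untreated by their labels, whereas the columns of the count table name PBS (phosphate-buffered saline) controls of days 1, 4 and 7. All 4 were taken as 1 steady-state group. The labels name no genetic change or other agent in any group, and TBI and the time after it are the labelled differences.

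mTECs present self-antigens to developing T cells in the center of the thymus. Immature mTECs carry basal epithelial genes and the chemokine CCL21. Mature mTECs carry high amounts of MHC class II and CD80, and they express AIRE and FEZF2, which switch on genes of peripheral tissues so that self-reactive T cells can be removed. Later stages lose AIRE and take on features of skin, gut, muscle and other tissues, and mTECs with AIRE turn over quickly. The CD45- fraction holds fibroblasts, endothelial cells and all epithelial cells of the thymus, so a bulk level of an mTEC gene depends both on the number of mTECs and on the RNA of each cell. These cannot be told apart here.

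Total counts per library ranged from 15721866 to 52056896. Expression is given as CPM, which are counts scaled to one common library size after normalization by the trimmed mean of M-values (TMM). The CD45- fraction held the cells its label gives, since the summed level of 4 fibroblast markers was 8903 to 47347 CPM and that of 4 endothelial markers was 573 to 970 CPM. Markers of thymocytes, which the removal of CD45+ cells should deplete, differed between conditions. The summed level of 8 thymocyte markers was 188 to 643 CPM at steady state, 90.5 to 114 CPM at day 1, 20.4 to 30.7 CPM at day 4 and 162, 3941 and 1686 CPM in day 7 replicates 1 to 3. All 8 were higher at day 7 than at day 1 and than at day 4 in the edgeR quasi-likelihood test with Benjamini-Hochberg adjustment, and none was at 0 in any library. Their part in the day 7 results was not tested beyond a fit with the mean log2 level of these markers (the thymocyte score) as a covariate, which is given with those results.

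The column names also end in a tag whose meaning the sources used here do not give. In 8 libraries the tag starts with k (as k3 or kk), and in the other 5 it does not. Of the 4 steady-state libraries, 2 have a k tag (PBS controls of day 4 replicate 2 and day 7 replicate 2). Of the later libraries, day 1 replicate 1, day 4 replicates 2 and 3 and all 3 libraries of day 7 have one. Day 7 can therefore be compared with the other conditions inside a tag family only through a few libraries, and some mTEC genes followed the tag closely. In addition, the tags of all 3 day 7 libraries and of no other library contain m0, so that what m0 stands for and day 7 cannot be told apart. The study calls the libraries biological replicates, but the number of mice behind each is not given in the sources used here, so p-values measure the spread between these libraries.

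Promoters are shown for the 4 genes whose expression was lower at day 7 than at day 1 (Cldn4, Elf3, Cd80 and Hdc) and for Aire, the gene with the largest SD relative to its mean at steady state. Each covers 250 bases before to 50 bases after the RefSeq start site (GRCm38.p6), 5′ to 3′ on the strand of the gene. The regions are chr5:134946885-134947184, minus strand (Cldn4), chr1:135258423-135258722, minus strand (Elf3), chr16:38458683-38458982, plus strand (Cd80), chr2:126618629-126618928, minus strand (Hdc) and chr10:78043561-78043860, minus strand (Aire). A RefSeq promoter was matched for 8 of the 9 genes, and that of Trp63 was not analysed here. Capitals mark matches on either strand to TATAAA (the TATA box) or AGGAAG (a core that factors of the ETS family such as ELF3 and SPIB bind). A kappa B site, the target of RELB, and a site of interferon regulatory factors were also searched and were found in none of the 8 windows.
Cldn4: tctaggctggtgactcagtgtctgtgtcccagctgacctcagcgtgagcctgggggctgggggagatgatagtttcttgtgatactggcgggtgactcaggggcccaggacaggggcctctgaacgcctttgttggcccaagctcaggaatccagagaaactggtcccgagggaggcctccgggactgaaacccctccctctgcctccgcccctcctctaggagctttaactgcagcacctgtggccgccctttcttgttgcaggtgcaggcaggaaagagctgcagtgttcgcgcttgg
Elf3: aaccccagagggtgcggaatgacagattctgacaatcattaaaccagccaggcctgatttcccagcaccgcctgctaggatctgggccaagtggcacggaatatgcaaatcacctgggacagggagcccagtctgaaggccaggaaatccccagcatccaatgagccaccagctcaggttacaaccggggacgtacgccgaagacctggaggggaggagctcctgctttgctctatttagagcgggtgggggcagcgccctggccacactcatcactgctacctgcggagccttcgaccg
Cd80: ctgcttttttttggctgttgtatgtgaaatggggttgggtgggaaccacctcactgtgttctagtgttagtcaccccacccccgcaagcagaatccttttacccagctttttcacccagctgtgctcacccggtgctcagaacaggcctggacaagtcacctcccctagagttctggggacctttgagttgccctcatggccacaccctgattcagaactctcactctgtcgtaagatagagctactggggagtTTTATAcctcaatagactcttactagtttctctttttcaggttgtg
Hdc: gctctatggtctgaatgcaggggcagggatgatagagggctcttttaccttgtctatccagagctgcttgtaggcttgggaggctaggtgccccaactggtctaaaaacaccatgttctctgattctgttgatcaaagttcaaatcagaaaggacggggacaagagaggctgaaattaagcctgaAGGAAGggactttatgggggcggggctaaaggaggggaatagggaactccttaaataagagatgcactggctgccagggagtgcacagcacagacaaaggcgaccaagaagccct
Aire: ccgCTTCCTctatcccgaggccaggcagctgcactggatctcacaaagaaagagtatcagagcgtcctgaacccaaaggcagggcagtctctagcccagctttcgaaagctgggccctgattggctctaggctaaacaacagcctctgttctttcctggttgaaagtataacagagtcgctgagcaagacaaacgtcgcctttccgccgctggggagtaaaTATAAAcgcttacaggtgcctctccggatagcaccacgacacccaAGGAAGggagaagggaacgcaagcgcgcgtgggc

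The Aire promoter held TATAAA at -29 to -24 from the start site, on the strand of the gene. It also held AGGAAG at 2 places, at -247 to -242 on the other strand and at 17 to 22 downstream of the start on the strand of the gene. Hdc held AGGAAG at -65 to -60, and Cd80 held TATAAA on the other strand at 5 to 10 after its start. Neither the Cldn4 nor the Elf3 window held any of the 4 patterns as searched, and nor did those of Epcam, Cldn3 and Fezf2. None of the matches overlapped another. Among 32851 mouse promoters of the same length, 13.6% held TATAAA, 35.4% AGGAAG, 0.411% the kappa B site and 3.44% the site of interferon regulatory factors. These matches describe letters in a window and are no evidence of binding.

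At steady state, levels per length (CPM per kilobase of exon, RPKM) ordered the genes from Epcam and Cldn3 down to Cd80. Epcam had 41.0 ± 29.0 RPKM (SD, n = 4), Cldn3 had 35.9 ± 5.93 and Hdc had 13.9 ± 7.03. Fezf2 followed with 12 ± 12.6 RPKM, Elf3 with 10.7 ± 7.02 and Trp63 with 8.08 ± 6.09. Aire had 5.56 ± 6.74 RPKM, Cldn4 had 4.49 ± 3.57 and Cd80 had 2.60 ± 1.38. Neighbors in this order differed by less than the larger of their SDs, except Cldn3 and Hdc. At day 7 the highest level was that of Cldn3, at 32.0 ± 8.74 RPKM (SD, n = 3), and the lowest was that of Aire, at 0.448 ± 0.284 RPKM.

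The 4 steady-state libraries differed widely for most of these genes. The coefficient of variation (SD over mean) at steady state was 121% for Aire, 105% for Fezf2 and between 50.5% and 79.6% for the other genes except Cldn3, for which it was 16.5%. The PBS control of day 1 replicate 2 had the highest steady-state level of every gene except Cldn3, 8 of 9.

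**Figure D1:**
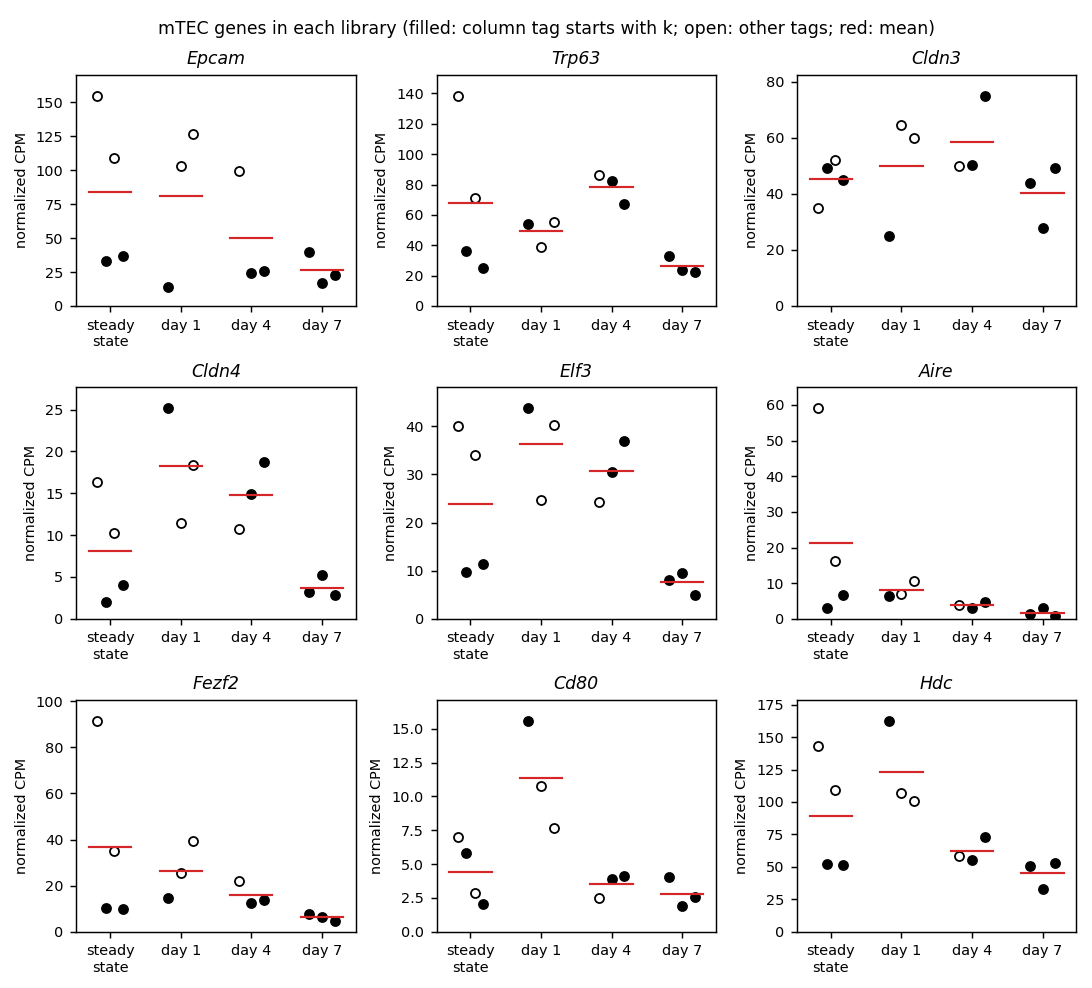
Normalized CPM (y axis, from 0) of the 9 mTEC genes in each of the 13 libraries by condition (x axis), with filled points for libraries whose column tag starts with k, open points for the other libraries and a red line at the mean. Elf3 was below 10 CPM in all 3 day 7 libraries and above 24 CPM in all libraries of days 1 and 4, and the open points of Epcam all lie above its filled points.

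Among the epithelial genes, Epcam encodes the adhesion molecule used to gate thymic epithelial cells (ENSMUSG00000045394, GRCm38 chromosome 17, 87635979 to 87651106, plus strand). At steady state its levels were 155, 33.4, 109 and 36.7 CPM in the PBS controls of day 1 replicate 2, day 4 replicate 2, day 7 replicate 1 and day 7 replicate 2, an order kept for every gene below. The levels in replicates 1 to 3 were 14.0, 103 and 127 CPM at day 1, 99.8, 24.4 and 25.5 CPM at day 4, and 40.1, 16.6 and 23.0 CPM at day 7. High and low libraries occurred within steady state, day 1 and day 4 alike, and day 7 had low ones only. Its log2 fold change at day 7 was -1.66 against steady state (SE 0.778) and -1.61 against day 1 (SE 0.810), with adjusted p = 0.381 and 0.249 in the edgeR quasi-likelihood test with Benjamini-Hochberg adjustment.

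Trp63 encodes the basal epithelial transcription factor p63 (ENSMUSG00000022510, chromosome 16, 25683763 to 25892102, plus strand). Its steady-state levels were 139, 36.2, 71.1 and 25.2 CPM. Those after TBI were 53.8, 38.8 and 55.6 CPM at day 1, 86.3, 82.1 and 67.2 CPM at day 4, and 32.8, 23.9 and 22.4 CPM at day 7. All day 4 libraries were above all day 1 libraries, and all day 7 libraries were below those of days 1 and 4, but the steady-state libraries spanned all of this range. The log2 fold change from day 4 to day 7 was -1.57 (SE 0.488, adjusted p = 0.0935 in edgeR), and that from day 1 to day 4 was 0.67 (SE 0.478, adjusted p = 0.579), so that neither passed the threshold of 0.05.

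Cldn3 and Cldn4 encode claudins, proteins of tight junctions that are also known from mTEC progenitors. Cldn3 (ENSMUSG00000070473, chromosome 5, 134986214 to 134987472, plus strand) had 35.0, 49.0, 52.2 and 44.8 CPM at steady state, 25.0, 64.5 and 60.0 CPM at day 1, 49.9, 50.4 and 75.0 CPM at day 4, and 43.8, 27.9 and 49.1 CPM at day 7. It differed least between conditions of the 9 genes, and its groups overlapped except at day 7 against day 4, where it was lower in every library. Its log2 fold changes over the 6 comparisons lay between -0.54 and 0.37, and no adjusted p was below 0.439 in edgeR.

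Cldn4 (ENSMUSG00000047501, chromosome 5, 134945119 to 134946934, minus strand), which lies near Cldn3 on the same chromosome, behaved differently. It had 16.3, 2.00, 10.3 and 4.02 CPM at steady state, 25.1, 11.4 and 18.3 CPM at day 1, 10.8, 14.9 and 18.8 CPM at day 4, and 3.20, 5.20 and 2.79 CPM at day 7. Every day 7 library was below every library of days 1 and 4, and the steady-state libraries reached both ranges. Cldn4 fell from 18.3 ± 6.86 CPM at day 1 to 3.73 ± 1.29 CPM at day 7 (SD, n = 3 each), a log2 fold change of -2.29 (SE 0.627, adjusted p = 0.0419 in edgeR). From day 4 to day 7 the log2 fold change was -1.99 (SE 0.621) with adjusted p = 0.0955.

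Elf3 encodes an ETS transcription factor of epithelial cells (ENSMUSG00000003051, chromosome 1, 135253575 to 135258568, minus strand). It had 40.0, 9.68, 34.1 and 11.3 CPM at steady state, 43.7, 24.7 and 40.3 CPM at day 1, 24.3, 30.5 and 37.0 CPM at day 4, and 8.10, 9.57 and 4.99 CPM at day 7. All day 7 libraries were below those of each other condition, although the lowest steady-state library was only just above them. Elf3 fell by 2.26 on the log2 scale from day 1 to day 7 (SE 0.515, adjusted p = 0.0198 in edgeR), and it fell by 2.02 from day 4 to day 7 (SE 0.511, adjusted p = 0.0455). The log2 fold change of -1.65 against steady state (SE 0.484, adjusted p = 0.139) did not pass.

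Of the genes of mature mTECs, Cd80 encodes the ligand that costimulates T cells through CD28 (ENSMUSG00000075122, chromosome 16, 38458933 to 38486933, plus strand). Its levels were 7.00, 5.80, 2.84 and 2.08 CPM at steady state, 15.6, 10.8 and 7.69 CPM at day 1, 2.52, 3.88 and 4.15 CPM at day 4, and 4.02, 1.88 and 2.55 CPM at day 7. Each day 1 library lay above every other library, and the other 3 conditions overlapped. Cd80 fell by 2.01 on the log2 scale from day 1 to day 7 (SE 0.484, adjusted p = 0.0249 in edgeR). The log2 fold change was 1.35 from steady state to day 1 (SE 0.434, adjusted p = 0.137) and -1.68 from day 1 to day 4 (SE 0.479, adjusted p = 0.123). Dendritic and B cells also express Cd80, and the summed level of 7 of their markers was 10.5 to 42.3 CPM at day 1 and 39.3 to 52.4 CPM at day 7, with none of the 7 past the threshold in either direction. That sum was 39.1 to 82.2 CPM at steady state and at most 58.0 CPM at day 4. Zbtb46 made up most of it, with means of 24.9 CPM at day 1 and 39.5 CPM at day 7. The other markers had means of at most 2.43 CPM in any condition. From day 1 to day 7, 6 of the 7 log2 fold changes were positive and 1 was negative.

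Hdc encodes histidine decarboxylase, the enzyme that makes histamine, and in the thymus it is known from mature mTECs (ENSMUSG00000027360, chromosome 2, 126593667 to 126619299, minus strand). It had 143, 52.4, 109 and 51.6 CPM at steady state, 162, 107 and 101 CPM at day 1, 58.3, 55.0 and 72.9 CPM at day 4, and 50.3, 32.6 and 53.3 CPM at day 7. The day 1 libraries were above those of days 4 and 7, and day 7 lay below day 4 throughout. Hdc fell by 1.44 on the log2 scale from day 1 to day 7 (SE 0.385, adjusted p = 0.0380 in edgeR). Mast cells, basophils and neutrophils also express Hdc, and the summed level of 8 of their markers was also higher at day 1 than at days 4 and 7. That sum was 11.9 to 28.2 CPM at day 1 with no marker at 0, 2.71 to 5.02 CPM at day 4, 0.964 to 4.55 CPM at day 7 with 2 or 3 markers at 0, and 3.75 to 21.7 CPM at steady state. Of the 7 markers tested, 3 (Cxcr2, Mpo and Ly6g, all of neutrophils or their precursors) fell from day 1 to day 7, and their part in the fall of Hdc was not tested. The mast cell marker Cpa3, named after its values were seen, had the opposite order. It had 0.248 ± 0.133 CPM at day 1 and 0.749 ± 0.535 CPM at day 7 (SD, n = 3 each). The other mast cell and basophil markers had the order of Hdc, all below 1 CPM. Means at days 1 and 7 were 0.319 and 0.0295 CPM (Fcer1a), 0.186 and 0.0342 CPM (Ms4a2) and 0.128 and 0 CPM (Mcpt8).

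Aire encodes the regulator that lets mTECs transcribe a wide range of tissue-restricted genes (ENSMUSG00000000731, chromosome 10, 78030022 to 78043610, minus strand). Its levels were 59.0, 3.03, 16.2 and 6.78 CPM at steady state, 6.50, 6.97 and 10.7 CPM at day 1, 3.87, 3.06 and 4.83 CPM at day 4, and 1.37, 2.93 and 0.841 CPM at day 7. Day 4 lay below day 1, and day 7 below day 4, without overlap. Steady state overlapped with day 1, and its lowest library was at the level of day 4. In raw counts the day 7 libraries held 67, 143 and 31 reads of Aire. The mean was 21.3 ± 25.8 CPM at steady state (SD, n = 4) and 1.71 ± 1.09 CPM at day 7 (SD, n = 3), a log2 fold change of -3.63 with SE 0.871 and adjusted p = 0.117 in edgeR. Against day 1 the log2 fold change at day 7 was -2.22 (SE 0.847, adjusted p = 0.127). DESeq2 called Aire lower at day 7 than at steady state (adjusted p = 0.000358) and than at day 1 (adjusted p = 0.0326), and the call of Aire differed between the tests.

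Fezf2 encodes the other known regulator of peripheral antigens in mTECs (ENSMUSG00000021743, chromosome 14, 12342094 to 12348189, minus strand). It had 91.3, 10.1, 34.9 and 9.88 CPM at steady state, 14.5, 25.4 and 39.4 CPM at day 1, 21.8, 12.3 and 13.8 CPM at day 4, and 7.73, 6.49 and 4.61 CPM at day 7. All day 7 libraries were below all other libraries, and the other 3 conditions overlapped. The log2 fold change at day 7 was -2.54 against steady state (SE 0.712, adjusted p = 0.134 in edgeR), -2.07 against day 1 (SE 0.723, adjusted p = 0.0982) and -1.34 against day 4 (SE 0.710, adjusted p = 0.339). As with Aire, DESeq2 called it at day 7 against steady state (adjusted p = 0.00631) and against day 1 (adjusted p = 0.0210).

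Counted together, the mTEC genes were lowest at day 7, and none was called among steady state, day 1 and day 4 in the edgeR test. At day 7 against day 1, 4 of 9 genes were lower (Cldn4, Elf3, Cd80 and Hdc) and none was higher, where 8.13% of all 19984 genes tested were called, 4.45% lower and 3.68% higher. The libraries of both days did not overlap for 7 of 9 genes, all lower at day 7, where 14.8% of all genes were lower without overlap and 12.7% higher. The median log2 fold change of the 9 genes was -2.01, beside 0.05 over all genes tested, and all 9 values were negative. These counts rest on few libraries. With 1 library left out, the number called was 0 without day 1 replicate 1, 1 without day 1 replicate 2 (Elf3) or replicate 3 (Cd80), 2 without day 7 replicate 1 (Elf3 and Cd80), and 0 without day 7 replicate 2 or replicate 3. The tag family as a covariate left Cd80 as the only call (adjusted p = 0.0385), and the thymocyte score or the general epithelial score as a covariate left none, with all 4 log2 fold changes still negative. Of all genes, 337 were called with the thymocyte score and 1203 with the epithelial score, in place of 1625. Neither score overlapped between day 1 and day 7, so these fits separate score and day only poorly.

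At day 7 against day 4, Elf3 was the 1 gene of 9 called lower, where 3.9% of all genes were called, 1.13% lower and 2.77% higher. The libraries did not overlap for 7 of 9 genes, all lower at day 7, where 14% of all genes were lower without overlap and 12.2% higher, and the median log2 fold change was -1.19 beside 0.11 over all genes. Elf3 kept its call without day 4 replicate 1 (adjusted p = 0.0495) and lost it without any other single library of these days. With the general epithelial score as a covariate its log2 fold change was -0.48 (adjusted p = 0.619 in edgeR). With this score 18 of all genes were called, in place of 779. The score itself was 6.34 to 6.74 at day 4 and 4.66 to 5.34 at day 7, without overlap. That fit therefore separates the score from the day only poorly. At day 4 against day 1, none of the 9 genes was called in either direction, where 1.43% of all genes were called, 1.07% lower and 0.355% higher. Aire, Cd80 and Hdc were lower at day 4 without overlap (3 of 9, against 13.7% of all genes) and Trp63 was higher (1 of 9, against 12.6%), with a median log2 fold change of -0.71 beside -0.10 over all genes. At an unadjusted p below 0.05, 2 of 9 were lower (Cd80 and Hdc), where 13.7% of all genes passed in either direction. DESeq2 called 1 of 9, Cd80 (adjusted p = 0.0209), where it called 960 of 19984 genes.

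The comparisons with steady state share their 4 control libraries. At day 1 none of the 9 genes was called, where 2.35% of all genes were called, 1.68% higher and 0.671% lower, and Cd80 alone (1 of 9) had an unadjusted p below 0.05, where 17.2% of all genes did. Cd80 was also the 1 gene whose day 1 libraries all lay above steady state, where 7.25% of all genes did and 8.56% lay below. DESeq2 called Cd80 (log2 fold change of 1.41, adjusted p = 0.0326), where it called 1399 of 19984 genes. At day 4 none was called, where 0.29% of all genes were called, 0.05% higher and 0.24% lower. No member was free of overlap with steady state there, where 6.44% of all genes were higher without overlap and 8.22% lower. At day 4, 1 of 9 (Aire) had an unadjusted p below 0.05, where 2602 of 19984 genes did. DESeq2 called Aire (adjusted p = 0.0458), where it called 645 of 19984 genes. At day 7 none was called, where 0.005% of all genes were called, all of them higher (0% lower). All 9 log2 fold changes at day 7 were negative, with a median of -1.36 beside 0.00 over all genes, and 5 of 9 had an unadjusted p below 0.05, where 13.5% of all genes did. Aire, Fezf2 and Elf3 did not overlap with steady state, 3 of 9 lower where 4.67% of all genes were lower without overlap and 2.82% higher. DESeq2 called these 3, where it called 1081 of 19984 genes. In edgeR, Aire was called without the PBS control of day 4 replicate 2 (log2 fold change of -3.99, adjusted p = 0.0454), the steady-state library with the lowest Aire.

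**Figure D2:**
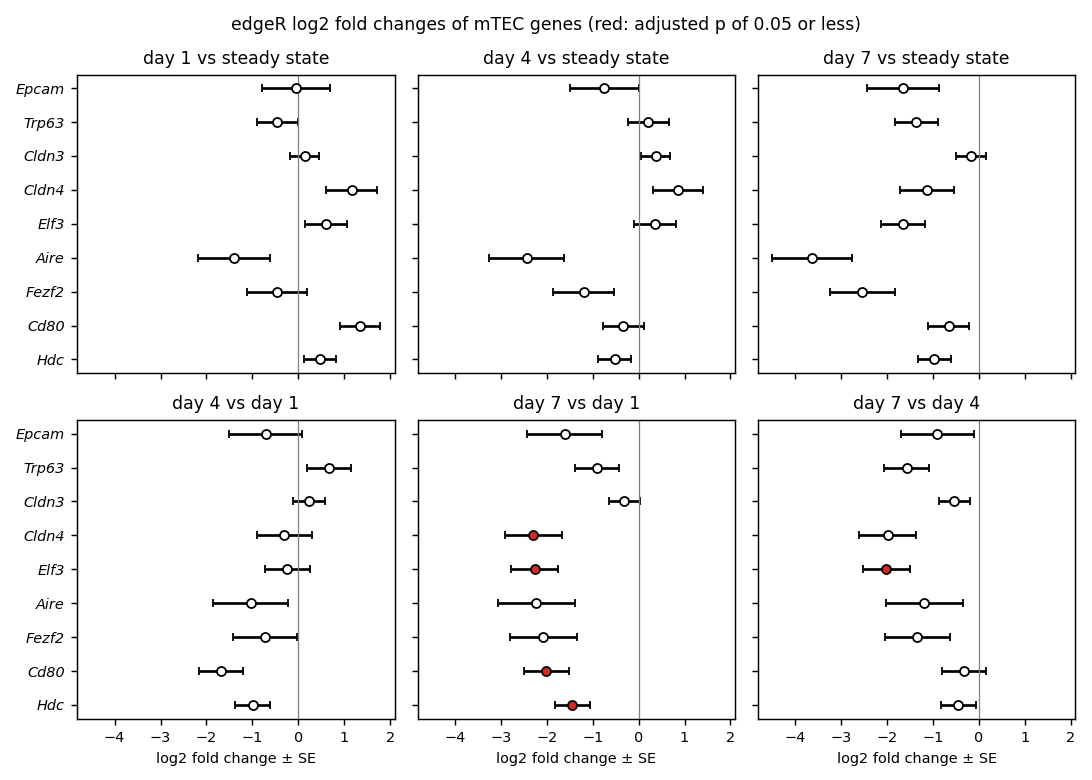
Log2 fold changes (x axis) with their SE for the 9 mTEC genes (y axis) in the 6 comparisons, from 1 edgeR fit of all 13 libraries, with red points where the adjusted p was 0.05 or less. All 9 points lie below 0 in the 3 comparisons of day 7, where the red points are Cldn4, Elf3, Cd80 and Hdc against day 1 and Elf3 against day 4.

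Epcam followed the column tag more closely than the day after TBI. The 8 libraries with a k tag had 14.0 to 40.1 CPM and the other 5 had 99.8 to 155 CPM, a split without overlap also within steady state, day 1 and day 4. With condition in the same edgeR fit, Epcam was lower in the k libraries by a log2 fold change of -2.24 (SE 0.278, adjusted p = 0.00669), where 5.25% of all genes were called lower and 3.1% higher. Fezf2 was the other gene that split completely. Its levels were 4.61 to 14.5 CPM with a k tag and 21.8 to 91.3 CPM without, a log2 fold change of -1.69 (SE 0.382, adjusted p = 0.0288). The libraries did not overlap, all lower with the tag, for 2 of 9 members, where 1.48% of all genes were lower without overlap and 1.42% higher. This comparison, and the joining of k3 and kk, were chosen after the values had been seen.

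The other 7 genes overlapped between the tags, and none passed the threshold. The log2 fold changes with the tag lay between -1.39 (Aire, adjusted p = 0.171) and 0.28 (Cd80, adjusted p = 0.675). With the tag family as a covariate, the log2 fold change of Epcam at day 7 became 0.25 against day 1 and 0.21 against day 4. That of Aire at day 7 against steady state became -2.70 (adjusted p = 0.461) and that of Fezf2 -1.34 (adjusted p = 0.480). Within the kk family, 1 library of day 1 and 1 of day 7 could be set side by side. Cldn4 was at 25.1 and 2.79 CPM in them, Elf3 at 43.7 and 4.99 CPM, Cd80 at 15.6 and 2.55 CPM, and Hdc at 162 and 53.3 CPM. Epcam was at 14.0 and 23.0 CPM and Cldn3 at 25.0 and 49.1 CPM in the same libraries, the opposite order. Within the k3 family, 2 libraries each of days 4 and 7 had means of 33.8 and 8.83 CPM for Elf3 and of 74.7 and 28.4 CPM for Trp63, whereas those of Epcam were 25.0 and 28.3 CPM. Parathyroid cells also express Epcam, and the summed level of 4 parathyroid markers overlapped between the tags. It was 15.7 to 327 CPM at steady state, 265 to 524 CPM at day 1, 241 to 1126 CPM at day 4 and 215 to 506 CPM at day 7, and none of the 4 passed the threshold in any comparison.

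Other genes of the mTEC lineage were read from lists given by the roles of their genes. Of 9 other immature mTEC genes, 4 were lower at day 7 than at day 1 and none was higher. In that comparison 4.45% of all genes were called lower and 3.68% higher. Ly6a, a surface protein of progenitors that responds to interferon, fell by 2.77 on the log2 scale (SE 0.456, adjusted p = 0.00522). Krt14, a basal keratin, fell by 1.79 (SE 0.358, adjusted p = 0.0115), Ccl21a, the chemokine that draws thymocytes into the medulla, by 1.80 (SE 0.471, adjusted p = 0.0350), and Pdpn, a membrane glycoprotein, by 1.67 (SE 0.443, adjusted p = 0.0371). Ly6a and Pdpn are also expressed by endothelial cells and fibroblasts, and these 2 were the members of the list that rose at day 1. Against steady state, 1.68% of all genes were called higher at day 1. Ly6a rose from 906 ± 347 CPM at steady state (SD, n = 4) to 6537 ± 3845 CPM at day 1 (SD, n = 3), a log2 fold change of 2.85 (SE 0.411, adjusted p = 0.00190), and Pdpn by a log2 fold change of 1.83 (SE 0.405, adjusted p = 0.0312). Ly6a was called in all 16 alternatives at day 1 against steady state and Pdpn in 9 of 16. Pdpn was not called without day 1 replicate 1 (log2 fold change of 1.33, adjusted p = 0.179), day 1 replicate 2 (adjusted p = 0.0520) or either PBS control of day 7 (adjusted p = 0.0992 and 0.0898), or when the thymocyte score entered the fit. The median log2 fold change of the list was 0.77 at day 1 against steady state, beside -0.10 over all genes, and -1.56 at day 7 against day 1. At day 7 against day 4, 1.13% of all genes were called lower. Of this list, Krt5 (log2 fold change of -2.61, SE 0.472, adjusted p = 0.0135) and Ccl21a (-2.25, SE 0.478, adjusted p = 0.0245) were the 2 of 9 called lower there. Neither was called without day 4 replicate 2, day 4 replicate 3 or day 7 replicate 2, or with the thymocyte or the epithelial score as a covariate, and Krt5 alone was called without day 7 replicate 3.

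Of 10 other mature mTEC genes, 1 was lower at day 7 than at day 1, where 4.45% of all genes were. This was Ubd, which encodes the ubiquitin-like protein FAT10 of mature mTECs. It had 156 ± 78.1 CPM at day 1 and 13.8 ± 4.21 CPM at day 7 (SD, n = 3 each), a log2 fold change of -3.50 (SE 0.685, adjusted p = 0.0110). At day 7 against day 4 the log2 fold change of Ubd was -2.61 (SE 0.660, adjusted p = 0.0452), a call that held in 5 of 15 alternatives. With 1 library left out it held only without day 4 replicate 1, it was lost with the tag family as a covariate (adjusted p = 0.0746), and the log2 fold change was -0.87 with the epithelial score. The other 9 did not pass in any comparison. The median of the list was -0.94 at day 7 against day 1 and -1.31 against steady state, where all 10 values were negative and none was called.

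The tested antigen genes that depend on Aire or Fezf2 had their lowest means at day 7, where the summed level of the Fezf2-dependent genes overlapped with steady state. Of 5 genes known to need Aire, 1 had no count in any library and 4 were tested. All 4 of these fell from day 1 to day 7 in edgeR, where 4.45% of all genes were called lower. Csn2, a milk casein, had 55.0 ± 35.8 CPM at day 1 and 2.88 ± 0.833 CPM at day 7 (SD, n = 3 each), a log2 fold change of -4.25 (SE 0.781, adjusted p = 0.00850). The other 3 were close to the limit of detection. In raw counts per library, Ins2 (insulin) had 14 to 32 at day 1 and 0 or 1 at day 7 (adjusted p = 0.0234). Fabp2, an intestinal fatty acid binding protein, had 18 to 37 and 1 or 2 (adjusted p = 0.00665), and Mucl2, a salivary protein also known as Spt1, had 9 to 51 and 2 or 3 (adjusted p = 0.0129). The median fitted log2 fold change was -4.45, between the values of Csn2 and Fabp2 (-4.65). Ins2, Fabp2 and Mucl2 had at most 3 counts per day 7 library, and Csn2 had 74 to 179. The summed level of the list was 9.58 to 95.9 CPM at steady state, 29.9 to 98.7 CPM at day 1, 13.5 to 22.8 CPM at day 4 and 2.09 to 3.77 CPM at day 7. None of the 4 was called against steady state in edgeR, although every day 7 library was below every steady-state library for all 4, and DESeq2 called all 4. Of all genes, 4.67% were lower without overlap there, and DESeq2 called 1081 genes in either direction.

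Of 4 genes known to need Fezf2, 2 were lower at day 7 than at day 1, where 4.45% of all genes were. Fabp9, a fatty acid binding protein of the testis, had 36 to 224 counts per library at day 1 and 7 to 26 at day 7, a log2 fold change of -3.71 (SE 0.805, adjusted p = 0.0160). Ttr, the transport protein transthyretin, had 10 to 69 counts at day 1 and 0 to 2 at day 7 (adjusted p = 0.0141). The other 2 did not pass. The summed level of the 4 was 2.50 to 29.0 CPM at steady state, 8.82 to 27.3 CPM at day 1, 8.26 to 11.5 CPM at day 4 and 1.46 to 4.32 CPM at day 7. Day 7 thus overlapped with steady state. Against steady state, 1 of 4 was lower at day 7 without overlap, where 4.67% of all genes were. There edgeR called 0 of the 4, and DESeq2 called 3 of them and 1081 of all genes. Of 10 general epithelial genes, 2 were lower at day 7 than at day 1, Cdh1 (E-cadherin; log2 fold change of -1.74, SE 0.409, adjusted p = 0.0223) and Esrp1 (an epithelial splicing factor; -1.86, SE 0.515, adjusted p = 0.0442). At day 7 against day 4 these and the keratin Krt18 (-1.77, SE 0.405, adjusted p = 0.0317) were called lower, 3 of 10, where 1.13% of all genes were. The count of 3 became 1 without day 4 replicate 1 and 0 without day 4 replicate 2 or 3 or day 7 replicate 2 or 3. It was 1 with the tag family and 0 with the thymocyte or the epithelial score as a covariate. The epithelial score is the mean log2 level of these same 10 genes. Weaker changes of the 10 genes with this score are therefore built in and are no check of their calls. Single libraries also decided several calls of the lists at day 7 against day 1. The immature list had 2 calls without day 1 replicate 1 or replicate 2 and 1 without day 7 replicate 2 or replicate 3. The Aire-dependent genes had 2 without day 1 replicate 1 or day 7 replicate 2. The Fezf2-dependent genes had 0 without day 1 replicate 1 or day 7 replicate 3 and 1 without day 7 replicate 2, and the epithelial genes had 0 without any 1 library of these days except day 7 replicate 1. The mature list had 1 call in that comparison throughout, which was Ubd in 14 of 15 alternatives. With the thymocyte score, Ubd was not called in edgeR (log2 fold change of -3.94, adjusted p = 0.0800), and the 1 call was of another gene. With the tag family as a covariate, 3 immature, 1 Aire-dependent, 1 Fezf2-dependent and 0 epithelial genes were called. The thymocyte score left 0 immature, 1 Aire-dependent, 1 Fezf2-dependent and 0 epithelial genes, and the epithelial score left 3, 3, 1 and 2. The last of these counts is of genes that are part of that score.

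**Figure D3:**
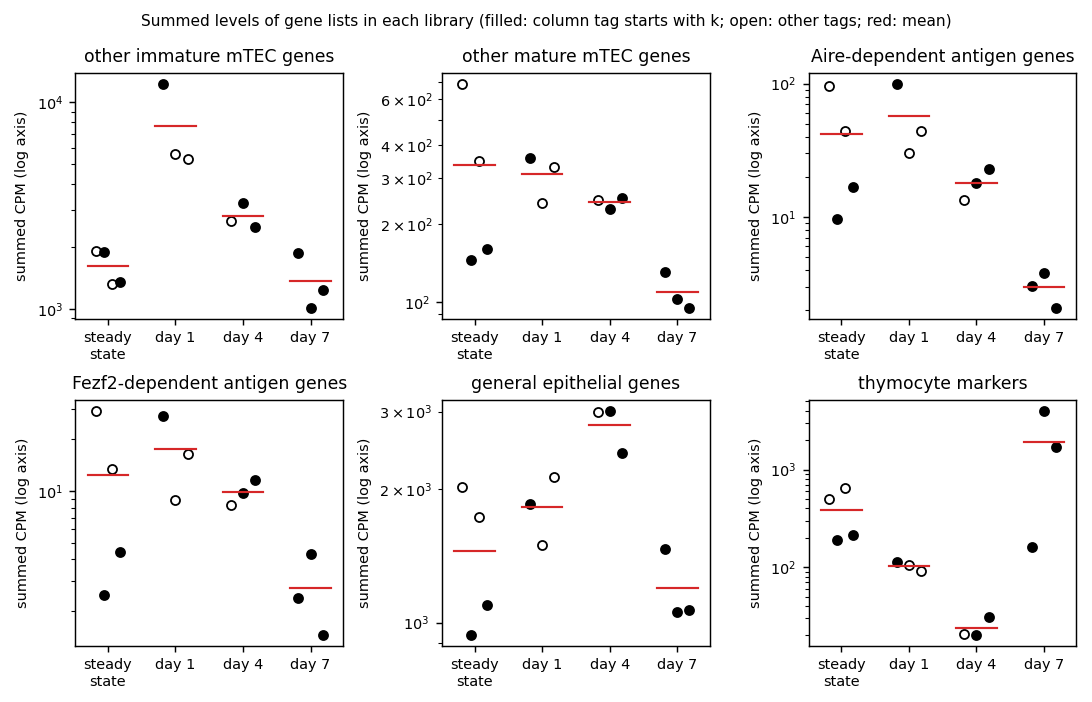
Summed CPM (y axes, log scale) of 6 gene lists in each of the 13 libraries by condition (x axis), with filled points for libraries whose column tag starts with k, open points for the others and a red line at the mean. The Aire-dependent antigen genes were at 2.09 to 3.77 CPM in the day 7 libraries and at 9.58 CPM or more in all others, whereas the thymocyte markers reached 1686 and 3941 CPM in 2 of the 3 day 7 libraries.

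Expression was also set against the mean of the 10 general epithelial genes in the same library, as the difference of log2(CPM + 0.5), to describe mTEC genes per epithelial signal. These differences are given without a test, and the share of all genes without overlap on this scale was not computed. On this scale Aire ranged from -3.00 to -0.66 at steady state, from -2.92 to -2.81 at day 1, from -4.65 to -3.93 at day 4 and from -4.44 to -3.23 at day 7. Every library of days 4 and 7 lay below every library of steady state and day 1. Fezf2 had the same order, with means of -1.04 ± 0.741 at steady state (SD, n = 4), and of -1.29 ± 0.419, -2.52 ± 0.272 and -2.27 ± 0.0594 at days 1, 4 and 7 (SD, n = 3 each). Days 4 and 7 overlapped for both genes. Relative to Epcam alone, which followed the column tag, the separation was lost for both genes. Fezf2 then had means of -1.48 at steady state and of -1.21, -1.33 and -1.93 at days 1, 4 and 7. Those of Aire were -2.43, -2.78, -3.20 and -3.63, with -3.26 to -1.39 at steady state and -4.52 to -2.29 at day 4. The summed level of the epithelial genes itself differed between conditions, at 940 to 2026 CPM at steady state, 1496 to 2136 CPM at day 1, 2414 to 3004 CPM at day 4 and 1056 to 1469 CPM at day 7. These genes are also expressed by cortical epithelial cells, and the summed level of 7 cortical markers was 615 to 2065, 180 to 1008, 1090 to 2669 and 578 to 1042 CPM in the same order. The part of either sum in the relative levels was not tested. Hdc was lower at day 4 than at steady state by a difference of -1.25 and than at day 1 by -1.55, and it was higher at day 7 than at day 4 by 1.04, each without overlap. Cd80 was lower at day 4 than at day 1 by -2.12 and higher at day 7 than at day 4 by 1.21, also without overlap. Epcam was lower than at steady state by -1.62 at day 4 and by -0.78 at day 7. Cldn4 was higher at day 1 than at steady state by 1.14 and lower at day 7 than at day 1 by -1.20. Elf3 was lower than at day 1 by -0.81 at day 4 and by -1.27 at day 7, and lower at day 7 than at steady state by -0.73. None of these overlapped. Trp63 and Cldn3 overlapped in all 6 comparisons.

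**Figure D4:**
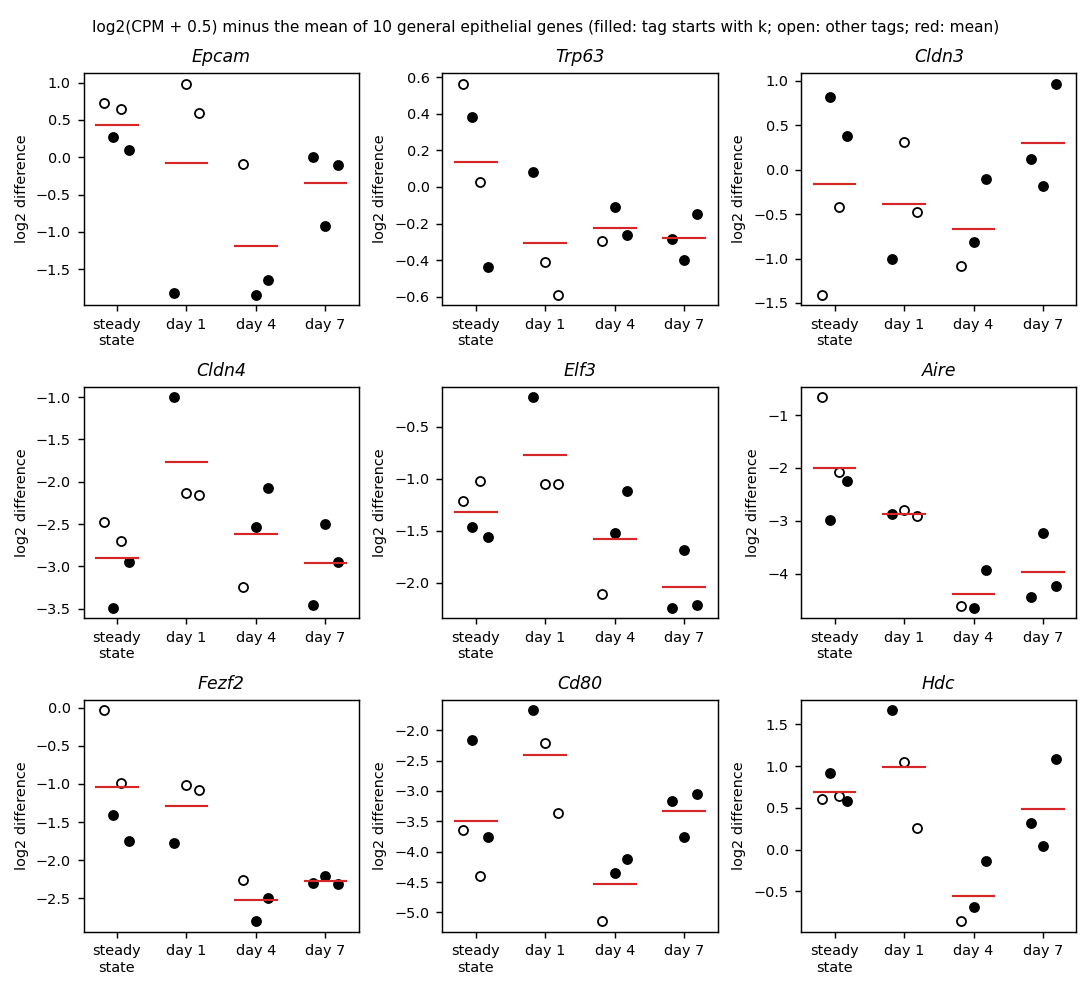
Difference in log2(CPM + 0.5) between each mTEC gene and the mean of 10 general epithelial genes of the same library (y axis) by condition (x axis), with filled points for libraries whose column tag starts with k, open points for the others and a red line at the mean. Aire and Fezf2 were lower in all libraries of days 4 and 7 than in all libraries of steady state and day 1.

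Across the 13 libraries the mTEC genes varied together to different degrees. Pearson's r of log2(CPM + 0.5) had a median of 0.557 over the 36 pairs of genes, and a median of 0.508 for deviations from the mean of each condition. The closest pairs were Cldn4 and Elf3 (r = 0.945) and Aire and Fezf2 (r = 0.918). Cldn3 had the lowest values, with r between -0.082 and 0.13 with 7 of the other genes and 0.388 with Epcam. These values describe libraries that share depth, purity and tag, and they were not tested. Among 14589 genes with a mean of at least 1 CPM, those closest to Aire were Akp3 (r = 0.975), an intestinal alkaline phosphatase, Ncf1 (0.974), a subunit of the phagocyte oxidase, and Zfp711 (0.956), a zinc finger protein. Perp (0.975), a desmosome protein, Trim7 (0.968) and Lor (0.965), the cornified envelope protein loricrin, were closest to Epcam. The genes closest to Trp63 were H2-DMb2 (0.961), which loads MHC class II, Bche (0.960), a cholinesterase, and Lifr (0.959), the receptor of leukemia inhibitory factor. Serpinb1a (0.969), Ces2a (0.948) and Hnf4g (0.948), a nuclear receptor of the gut, were closest to Hdc.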

How the data were processed

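RNA from CD45- thymic cells was sequenced in 13 libraries. The authors deposited raw counts per gene, with the exonic length of each gene used here for RPKM. The submitters' processing notes name Trimmomatic 0.38, STAR 2.7.0e and featureCounts 1.6.3, and the methods give the mouse build GRCm38.p5 with GENCODE M12. Total counts were 15721866 to 52056896 per library. Symbols for 53274 of 53379 identifiers came from GENCODE M21, and Mucl2 was matched to Spt1 as a RefSeq synonym. Steady-state columns name PBS controls without the replicate numbers of the labels and were used as 1 group. All per-sample columns were used (0 others).

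Counts were normalized by TMM and filtered with filterByExpr (minimum count of 10, minimum total of 15) in edgeR 4.0.16 (R 4.3.3, limma 3.58.1). One quasi-likelihood fit of all 13 libraries by condition gave 6 comparisons (common dispersion 0.177), with Benjamini-Hochberg adjustment over 19984 genes and a threshold of 0.05. SEs are the log2 fold change divided by the square root of F. DESeq2 1.42.0 was an alternative, beside RLE normalization, 2 other filters, fits of only 2 conditions, the tag family or the replicate number as a term, and each library left out. The thymocyte and epithelial scores as covariates and the test of the tag's start were added after the data had been seen. Log2 levels used a pseudocount of 0.5. On simulated counts for day 7 against day 1 (19984 genes), 69.5% of 200 genes changed by 2 on the log2 scale were recovered, with 5 false calls. Replicates of 1 group were compared for duplicates, and none agreed within sampling noise. Of 31 values tested for a far library within the 4 of steady state, 0 passed Dixon's critical ratio of 0.829. Figures were drawn with matplotlib 3.10.9 (Python 3.11.15, pandas 2.3.3, numpy 2.4.6).

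The 9 genes and all gene lists were chosen with earlier results of these data known. Named genes were the 9 members, up to 4 genes of each list past the threshold in each comparison by adjusted p, and the 3 genes with the highest Pearson's r to Aire, Epcam, Trp63 and Hdc among genes with a mean of at least 1 CPM.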

Additional observations from a re-analysis of the deposited data

How the results depend on the processing

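The log2 fold changes of the 9 genes in 6 comparisons kept their direction and their side of the threshold in 313 of 351 values with 1 library left out and in 427 of 486 values under the other alternatives. Most of these values belong to results that were not called in the main fit. With 1 library left out at day 7 against day 1, Cldn4 and Hdc kept their call in 0 of 6 fits. Elf3 and Cd80 kept theirs in 2 of 6, and Elf3 at day 7 against day 4 in 1 of 6. The number of all genes called also moved widely, and the cause was not tested. Without a filter on low counts, 250 genes were called at day 4 and 627 at day 7 against steady state and 1265 at day 7 against day 4, in place of 58, 1 and 779, and 3 members were called in each of the last 2 comparisons. With at least 10 counts in every library these became 20, 0 and 355, with 880 at day 7 against day 1 in place of 1625, and 0 members were called at day 7 against day 4. Fitting only the 2 conditions compared gave 228 (day 1), 146 (day 4) and 0 (day 7) against steady state and 394 at day 7 against day 4, with 3 members in the last. DESeq2 called 1399, 645 and 1081 genes at days 1, 4 and 7 against steady state, with 1, 1 and 3 members, 960 at day 4 against day 1 with 1 member, 2940 at day 7 against day 1, and 1919 at day 7 against day 4 with 3 members. RLE normalization and DESeq2 turned the log2 fold change of Epcam at day 1 against steady state to 0.012.

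The tag family as a covariate gave 1066, 33 and 0 genes against steady state and 163 at day 4 against day 1, with 1 member at day 7 against day 1 and 0 at day 7 against day 4, and it turned Epcam to 0.045 (day 4 against day 1), 0.25 (day 7 against day 1) and 0.21 (day 7 against day 4). The mean correlation of deviations between same-numbered libraries was -0.669, -0.141 and 0.054 for days 4 and 1, 7 and 1, and 7 and 4. Same-numbered libraries of days 1 and 4 all differ in the start of the tag. These values therefore cannot decide whether the replicate numbers pair the libraries. With the replicate block, 209, 27 and 0 genes were called against steady state, 56 at day 4 against day 1, 640 at day 7 against day 1 and 0 at day 7 against day 4, with 0 members in the last, and Cldn3 at day 1 against steady state turned to -0.035.

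The thymocyte score gave 161 genes at day 7 against steady state, 337 against day 1 with 0 members, and 10 against day 4 with 0 members, and turned Cldn4 (0.30) and Elf3 (0.11) at day 4 against day 1 and Cd80 (0.52) at day 7 against day 4. The epithelial score gave 938, 127 and 0 genes against steady state, with 2 members at day 4 (Aire and Fezf2), 1 member at day 4 against day 1 (Fezf2), 0 members at day 7 against day 1, and 18 genes and 0 members at day 7 against day 4. It turned Trp63 (-0.45) and Elf3 (-0.25) at day 4 and Cldn4 (0.053) at day 7 against steady state, Trp63 (0.041) at day 7 against day 1, and Epcam (1.46), Trp63 (0.018), Aire (1.61), Fezf2 (1.28) and Hdc (0.42) at day 7 against day 4. Neither score overlapped between day 7 and day 1 or between day 7 and day 4. In those comparisons these fits separate score and day only poorly.

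With 1 library left out, the genes called ranged from 252 to 797 (day 1), 19 to 97 (day 4) and 0 to 622 (day 7) against steady state, from 87 to 287 at day 4 against day 1, from 472 to 1953 at day 7 against day 1 and from 15 to 1507 at day 7 against day 4, and the members called from 0 to 1, 0 to 2 and 0 to 1 at day 7 against steady state, day 1 and day 4. Log2 fold changes that changed sign ranged at day 1 against steady state from -0.51 to 0.48 (Epcam), -0.73 to 0.21 (Trp63), -0.089 to 0.46 (Cldn3) and -0.87 to 0.57 (Fezf2), at day 4 against steady state from -0.062 to 0.93 (Trp63) and -0.56 to 0.069 (Cd80), and for Cldn3 from -0.31 to 0.075 at day 7 against steady state and from -0.094 to 0.46 at day 4 against day 1. Epcam at day 7 against day 4 ranged from -1.33 to 0.0046. Adjusted p over all alternatives ranged at day 7 against day 1 from 0.00214 to 0.193 (Cldn4), 0.000214 to 0.0857 (Elf3), 0.000628 to 0.324 (Cd80) and 0.00403 to 0.184 (Hdc), and for Elf3 at day 7 against day 4 from 0.0015 to 0.619. Relative to Epcam alone in place of the 10 epithelial genes, 17 of 36 mean levels moved by more than 1 SD, and a pseudocount of 0.1 moved none. Genes at a few counts per library at day 7 (Ins2, Fabp2, Mucl2 and Ttr) are limited by depth.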

Other observations

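Cortical thymic epithelial cells (cTECs) support early thymocytes and share an epithelial origin with mTECs. The summed level of the 7 cTEC markers given above was higher in all day 4 libraries than in all libraries of days 1 and 7, and none of the 7 markers passed the threshold in any comparison in edgeR. The summed endothelial markers lay between 573 and 970 CPM in all 13 libraries.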
